A study of Mus musculus with 12 samples.

Results

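The regions described here were open in cycling SOX2+ cells and in the bulk of mouse SHH medulloblastoma, and were absent from the peak lists of SOX2+ cells that did not cycle. They were chosen by presence in ATAC-seq peak lists, an assay in which a transposase marks accessible DNA. Overlapping peaks of the 12 lists, with 1 bp as the least overlap, formed 44242 merged regions on 19 autosomes and chromosome X. A region was a member when it held a peak in both SOX2+/MKI67+ libraries and in neither SOX2+/MKI67- library, in at least 1 of 4 SOX2+ libraries and in at least 3 of 4 SOX2- libraries. The rule kept 532 regions, 1.20% of all merged regions. Because the rule used the lists of all 12 libraries, presence and strength of the member peaks are given as a description, with no test.

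All libraries came from endpoint brain tumours of untreated Ptch1+/- mice, which carry 1 intact copy of the gene for the hedgehog receptor. The groups were SOX2+/MKI67+ cells (2 libraries), SOX2+/MKI67- cells (2), SOX2+ cells (4) and SOX2- cells (4). Per the labels, eGFP stood for SOX2 and separated stem-like from bulk cells, and RFP stood for MKI67 and separated cycling from non-cycling SOX2+ cells. The labels give no ages and do not say whether replicates came from separate animals.

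SHH medulloblastoma arises in the cerebellum from granule neuron progenitors, which divide in response to Sonic hedgehog and then differentiate into granule neurons. The ligand binds PTCH1, which then releases Smoothened, and GLI transcription factors carry the signal to target genes. In these tumours a minority of SOX2+ cells, mostly out of the cell cycle, has stem-like properties, and most of the bulk resembles cycling progenitors on their way to neurons. MKI67 is a nuclear protein of cycling cells. Open chromatin at promoters is often shared between cell types, while open chromatin at distal enhancers varies more.

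Member regions covered the starts of several genes of this lineage. The sequences below are start windows from RefSeq on GRCm38.p6 (the same coordinates as mm10), each running from 250 bases before a start site to 50 bases within the transcript, 5′ to 3′ on the gene's strand. They are shown because their genes, namely Atoh1, Tlx3, Neurod1, Gli2 and Smo, carry the results on progenitor, neuronal and hedgehog loci. The windows of Atoh1, Tlx3, Neurod1 and Gli2 lay whole inside a member region, and 239 of the 300 bases of Smo did. Capitals mark matches on either strand to GGGCGG (SP and KLF factors), CCAATCA (NFY), ACAAAG (SOX), CCGGAAG (ETS), CAGCTG or CAGATGG (E-boxes).
Atoh1, chr6:64728875-64729174, plus strand: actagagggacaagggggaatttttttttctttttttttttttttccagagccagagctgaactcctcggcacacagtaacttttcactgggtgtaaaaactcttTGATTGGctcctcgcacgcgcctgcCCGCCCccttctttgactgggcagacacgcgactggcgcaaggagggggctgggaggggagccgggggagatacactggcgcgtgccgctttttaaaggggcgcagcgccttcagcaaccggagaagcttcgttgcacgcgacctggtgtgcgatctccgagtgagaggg
Tlx3, chr11:33203539-33203838, minus strand: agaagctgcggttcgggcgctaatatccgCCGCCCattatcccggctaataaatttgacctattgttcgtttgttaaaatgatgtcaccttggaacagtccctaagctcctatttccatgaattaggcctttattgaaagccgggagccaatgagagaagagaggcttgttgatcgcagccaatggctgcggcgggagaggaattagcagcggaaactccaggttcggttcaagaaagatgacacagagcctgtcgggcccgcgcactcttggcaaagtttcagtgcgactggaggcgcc
Neurod1, chr2:79456587-79456886, minus strand: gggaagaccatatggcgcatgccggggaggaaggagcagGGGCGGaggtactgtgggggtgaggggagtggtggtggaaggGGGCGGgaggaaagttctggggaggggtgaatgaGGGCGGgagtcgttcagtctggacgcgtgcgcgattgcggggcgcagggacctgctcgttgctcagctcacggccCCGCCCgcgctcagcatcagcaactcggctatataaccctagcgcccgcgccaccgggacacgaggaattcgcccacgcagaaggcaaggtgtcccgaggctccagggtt
Gli2, chr1:119053570-119053869, minus strand: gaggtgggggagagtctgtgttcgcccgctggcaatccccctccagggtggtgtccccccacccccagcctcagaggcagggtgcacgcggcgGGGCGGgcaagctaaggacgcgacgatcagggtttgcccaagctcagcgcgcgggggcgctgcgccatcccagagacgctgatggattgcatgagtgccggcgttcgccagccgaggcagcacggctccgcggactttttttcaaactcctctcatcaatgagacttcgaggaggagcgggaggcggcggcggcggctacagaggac
Smo, chr6:29735247-29735546, plus strand: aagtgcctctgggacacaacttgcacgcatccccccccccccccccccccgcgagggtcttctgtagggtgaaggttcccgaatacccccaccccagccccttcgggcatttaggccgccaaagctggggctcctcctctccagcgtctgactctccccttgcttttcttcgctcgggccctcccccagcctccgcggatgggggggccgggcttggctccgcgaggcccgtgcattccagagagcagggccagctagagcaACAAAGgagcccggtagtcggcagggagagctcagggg

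The share of G and C in the windows shown was 56.7% for Atoh1, 51.7% for Tlx3, 66.7% for Neurod1, 67.3% for Gli2 and 67.7% for Smo. GGGCGG or its reverse complement occurred 4 times at Neurod1, once each at Atoh1, Tlx3 and Gli2, and in no place at Smo. In all, 77 members overlapped 96 start windows of the table, whose median GC content was 61.0%, against 62.3% in the 13201 windows under any merged region and 53.0% in all 32619 windows. GGGCGG was in 65.6% of member windows, 67.5% of windows under any merged region and 35.9% of all windows. The SOX letters ACAAAG were in 21.9%, 12.5% and 18.7%, and the ETS letters CCGGAAG in 10.4%, 17.9% and 8.92%, in the same order. Of the E-boxes, CAGCTG was in 12.5%, 15.5% and 16.4% and CAGATGG in 2.08%, 3.50% and 5.33%. The GLI letters GACCACCCA were in 0 of the 96 member windows, 0.189% of windows under a merged region and 0.254% of all windows. The shares describe letters only, and 20 motifs were counted.

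The members were 29.8% of the 1784 regions found in both SOX2+/MKI67+ and neither SOX2+/MKI67- library, a class that made up 4.03% of all regions. Presence in 3 or 4 SOX2- libraries was found in 35.7% of this class, against 25% of all merged regions. The opposite class, with both SOX2+/MKI67- and neither SOX2+/MKI67+ library, held 430 regions (0.972%), of which 0.465% were in 3 or 4 SOX2- libraries. Presence in 1 to 4 SOX2+ libraries was found in 78.1% of the SOX2+/MKI67+ class and in 79.5% of the SOX2+/MKI67- class, against 65.6% of all merged regions. The member rule kept 532 regions, and the same rule with both MKI67 groups exchanged kept 2. The contrast depended on list length and on 1 library. With the strongest 7009 peaks of every list the counts were 130 and 30. Without SOX2+/MKI67+ replicate 2, the longer list of its group, they were 631 and 149, and without replicate 1 they were 725 and 4. Leaving out a library of this group loosens both rules, which then use the 1 SOX2+/MKI67+ library left.

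**Figure D1:**
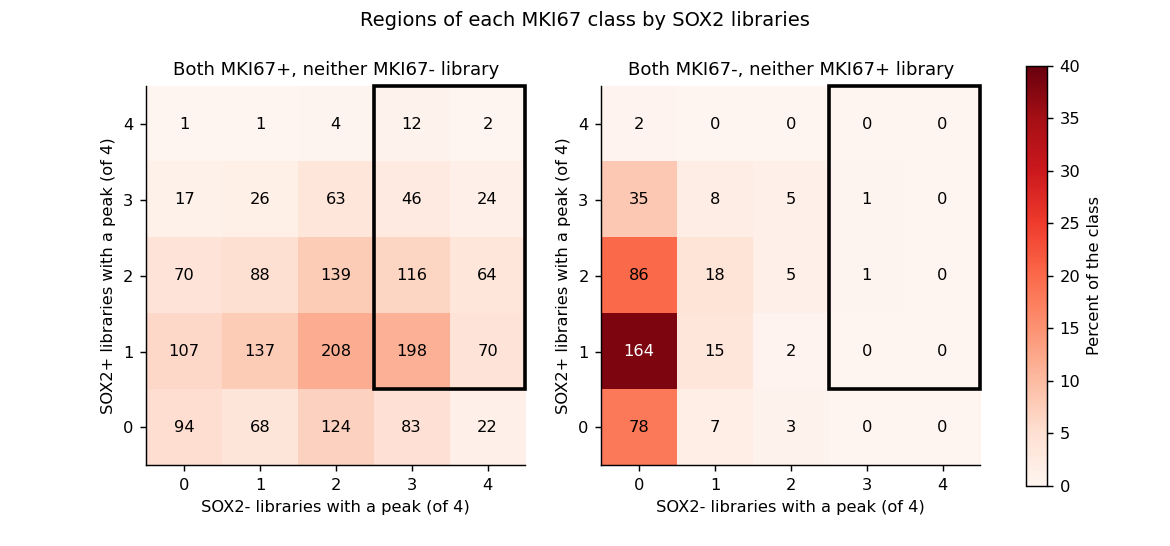
Number of regions found in both SOX2+/MKI67+ and neither SOX2+/MKI67- library (left) and in both SOX2+/MKI67- and neither SOX2+/MKI67+ library (right), by the number of SOX2- libraries (horizontal axis, 0 to 4) and of SOX2+ libraries (vertical axis, 0 to 4) with a peak, coloured by the percent of the class. The black frame marks the SOX2 requirement, with 532 members on the left and 2 regions on the right.

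Few of the regions that met the SOX2 requirement were members. Of 10400 regions in at least 1 SOX2+ and 3 SOX2- libraries (23.5% of all), 8510 had a peak in both SOX2+/MKI67+ and both SOX2+/MKI67- libraries. A further 611 were in both SOX2+/MKI67+ libraries and in 1 SOX2+/MKI67- library, and 291 were in 1 SOX2+/MKI67+ library and neither SOX2+/MKI67- library. On the other borders of the rule, 414 regions met the rule but for being in 2 SOX2- libraries, and 105 met it but for being in no SOX2+ library.

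Members were listed in 6 to 10 of the 12 libraries. By the rule, SOX2+/MKI67+ replicates held 532 each and SOX2+/MKI67- replicates 0 each. SOX2+ replicates 1 to 4 held 120, 20, 462 and 292 members, and SOX2- replicates 1 to 4 held 190, 532, 503 and 531. The lists themselves held 18738 and 24694 peaks for SOX2+/MKI67+ libraries, against 19229 and 17615 for SOX2+/MKI67- libraries. SOX2+ lists ranged from 9377 peaks (replicate 2) to 25272 (replicate 4), and SOX2- lists from 7009 (replicate 1) to 26206 (replicate 2). SOX2- replicate 1, the shortest list, stood apart from the others of its group with 190 members, and by the rule each member it lacked was in every other SOX2- list. SOX2+ replicate 4, the longest SOX2+ list, held fewer members than SOX2+ replicate 3.

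Single libraries carried part of the membership. Of 268 members with a peak in 1 SOX2+ library, that library was replicate 3 for 213, replicate 4 for 47, replicate 1 for 8 and replicate 2 for 0. Without SOX2+ replicate 3 the rule kept 318 regions. With a library of another group left out, the rule was applied to the libraries left, which loosens it. It then asked for all but 1 of the SOX2- libraries left, or for absence from the 1 SOX2+/MKI67- library left. So loosened, it kept 911, 945 and 913 regions without SOX2+/MKI67- replicate 1, SOX2- replicate 1 and SOX2- replicate 3. Of 372 members absent from 1 SOX2- library, the library was replicate 1 for 342, and 160 members were in all 4. Only 14 members were in all 4 SOX2+ libraries.

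**Figure D2:**
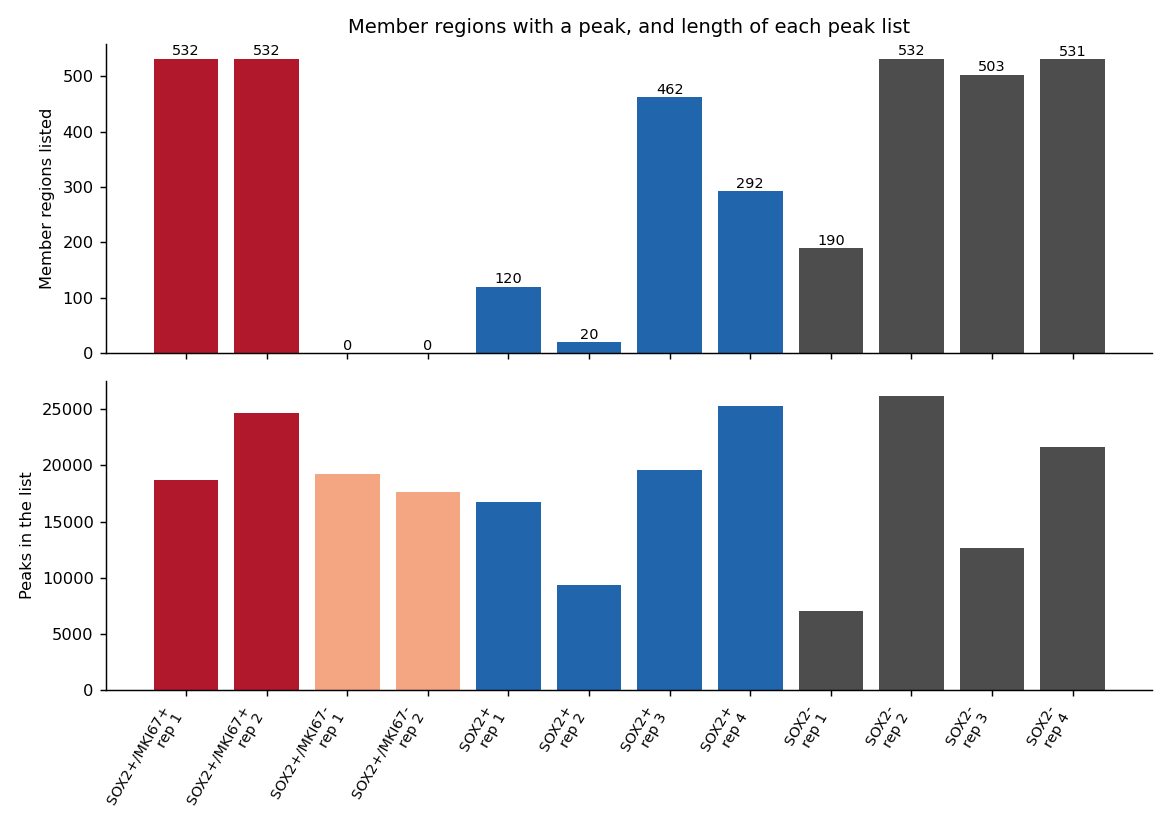
Number of member regions with a peak (top) and number of peaks in the list (bottom) for each of the 12 libraries, 1 bar a library. SOX2+/MKI67+ and SOX2+/MKI67- libraries are at 532 and 0 by the rule, while SOX2+ libraries range from 20 to 462 and SOX2- libraries from 190 to 532.

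Member peaks lay in the lower part of most lists and in the upper part of a pair of bulk lists. Ranked by the -log10 q-value that the authors' peak caller gave each peak, member peaks had median percentiles of 35.5 and 35.4 in SOX2+/MKI67+ replicates 1 and 2, where 100 is the strongest peak. In SOX2+ replicates 1 to 4 the medians were 17.9, 9.68, 37.7 and 25.9, and in SOX2- replicates 1 to 4 they were 27.8, 74.2, 37.7 and 68.1. Only SOX2- replicates 2 and 4, the longest lists of their group, had a median above 50. Of the members, 52 (9.77%) were above the median of both SOX2+/MKI67+ lists and 314 (59.0%) below the median of both, while 93.3% of the 5397 regions found in all 12 libraries were above both. When only the strongest 7009 peaks of each list were kept, 4 of the 130 regions that met the rule overlapped a member. An absent peak can lie just under a list's threshold, so absence from the SOX2+/MKI67- lists is absence from a list and not closed chromatin.

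**Figure D3:**
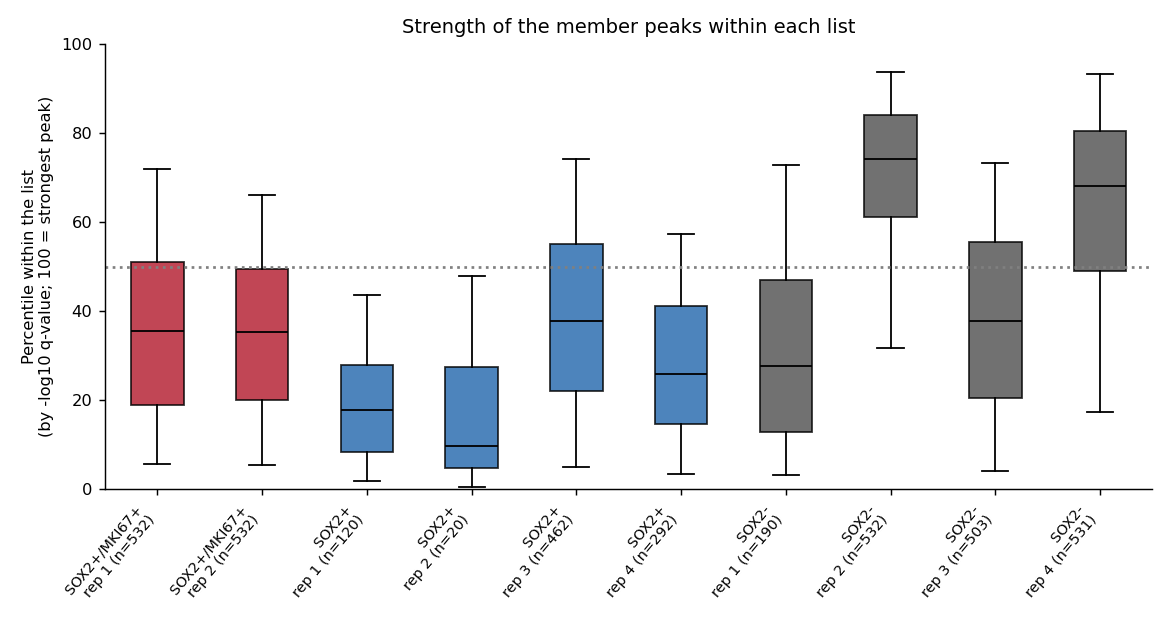
Percentile of the member peaks within each list by -log10 q-value, where 100 is the strongest peak of the list, for the 10 libraries that hold members. Boxes show the quartiles with the median as a black line and whiskers the 5th and 95th percentiles, n is the number of members listed, and the medians of SOX2- replicates 2 and 4 (74.2 and 68.1) are above the dotted midline.

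Most members were away from gene ends. Of the 532, 83 lay within 1 kb of either end of a protein-coding gene (15.6%, Wilson 95% interval 12.8 to 18.9%, which covers counting error only), 209 lay elsewhere inside genes (39.3%) and 240 between genes (45.1%). Over all merged regions the shares were 27.3%, 38.5% and 34.2%, and regions found in all 12 libraries lay at gene ends in 82.7%. Gene ends were the outer ends of the gene span. Members within 1 kb of a start inside the span, as at Ebf3, Lhx2 and Ptch1, thus counted as inside genes. The members' share depended on how many peaks entered: it was 54.2% with peaks at or above each list's median score and 62.3% with the strongest 7009 peaks, where 203 and 130 regions met the rule and 34 and 4 of them overlapped a member. Of the 289 regions found in both SOX2+/MKI67+, neither SOX2+/MKI67- and no SOX2- library, 14.5% were at gene ends, and of the 430 regions of the opposite MKI67 class 12.1%. Members between genes were far out, with a median of 68.4 kb to the nearest gene against 37.5 kb for all regions, and 101 members (19%) were over 100 kb from any gene against 9.84%. Beyond 100 kb lay 6.92% of the 289 regions of cycling SOX2+ cells that no SOX2- library held and 15.1% of the 430 regions of the opposite class.

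Since overlap of peaks formed the regions, summits within a member lie near each other by construction. The summits of both SOX2+/MKI67+ replicates were a median of 64.5 bp apart, and within 100 bp at 66.7% of members. Summits of SOX2+/MKI67+ replicate 2 were a median of 60 to 78.5 bp from those of the SOX2+ libraries and 59.0 to 70.0 bp from those of the SOX2- libraries. The median width of a member was 606 bp, against 411 bp for all merged regions, and regions with peaks in more libraries are wider by construction. The nearest SOX2+/MKI67- peak was a median of 33.6 kb away, and 21 members (3.95%) had one within 2 kb. Over all 22560 regions in neither SOX2+/MKI67- list these values were 28.7 kb and 6.26%. Members were spread over all chromosomes, from 0.728% of the regions of chromosome 7 to 1.82% of those of chromosome 6.

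Within 100 kb, 431 members were assigned to 406 nearest protein-coding genes, 1.88% of the 21631 genes. Granule neuron progenitor loci held 9 members at 7 of 20 genes, namely Atoh1, Zic1, Zic2, Zic5, Mfap4, Tlx3 and Gli2. These were 8.41% of the 107 regions of that list, while 1.08% of all assigned regions were members. Hedgehog loci held 6 members at 5 of 20 genes, and neuronal differentiation loci 7 members at 5 of 24. These were 5.66% of 106 hedgehog and 4.35% of 161 neuronal differentiation regions. Neuronal transcription factors had members at 3 of 26 genes and axon guidance and adhesion at 6 of 30, but these loci are rich in regions, and members were 1.92% of 208 and 1.94% of 310 of them. Stem and progenitor genes had members at 4 of 20, namely Sox9, Lhx2, Olig3 and Cd44. These were 4.08% of the 98 regions of that list, near the share of neuronal differentiation loci. Cell cycle and mitosis genes had a member at 1 of 32, and DNA replication genes at 0 of 25. The lists were drawn up with earlier results of these data known, and the rule used the same lists of peaks, so these counts support no direction.

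**Figure D4:**
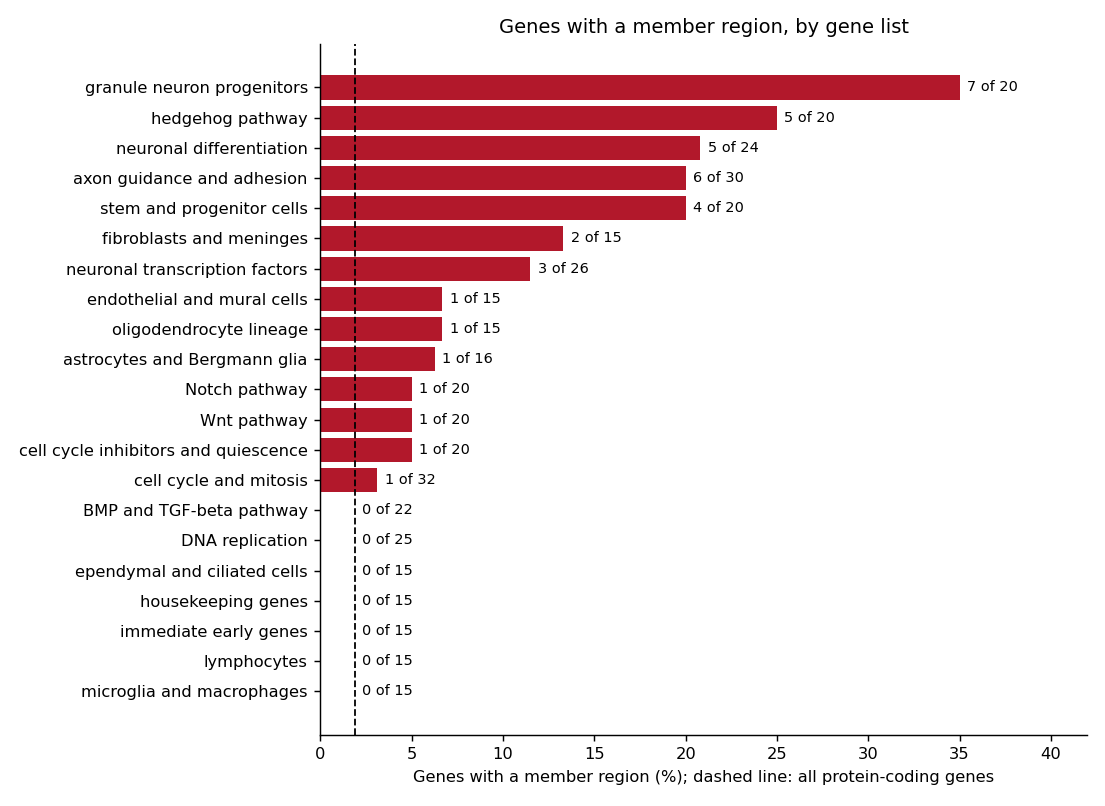
Percent of the genes of each list with at least 1 member region within 100 kb, with the count of genes beside each bar and all protein-coding genes (1.88%) as a dashed line. Granule neuron progenitor genes are at the top with 7 of 20, and 7 lists, among them DNA replication and housekeeping genes, are at 0.

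Among progenitor genes, Atoh1 encodes the basic helix-loop-helix factor that specifies granule neuron progenitors, and both of its regions listed in both SOX2+/MKI67+ libraries were members. The region at its start, chr6:64728659-64729276, had -log10 q-values of 5.93 and 7.65 in SOX2+/MKI67+ replicates 1 and 2 and no peak in SOX2+/MKI67- libraries. It had 9.59 and 3.77 in SOX2+ replicates 3 and 4, and 7.51, 15.8, 4.70 and 17.4 in SOX2- replicates 1 to 4. It was thus in every bulk list and in 2 of 4 SOX2+ lists. The region at chr6:64734220-64734987, 3.36 kb beyond the gene, had 10.5 and 9.33 in SOX2+/MKI67+ replicates 1 and 2. In SOX2+ replicates 1, 3 and 4 it had 4.54, 14.3 and 8.03, and in SOX2- replicates 1 to 4 it had 9.51, 22.8, 12.8 and 15.5. These q-values are the authors' own for each list and do not compare strength between lists, and in sorted bulk cells fewer open cells and weaker opening per cell cannot be told apart.

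The Zic genes encode zinc finger factors of cerebellar progenitors. The Zic2 region at chr14:122473994-122475462 was 1 of 2 members listed in 10 libraries, the other being at Dazap1, an RNA-binding protein gene. It had -log10 q-values of 16.6 and 11.4 in SOX2+/MKI67+ replicates 1 and 2, and 5.13, 3.86, 17.3 and 11.7 in the SOX2+ replicates in order. The SOX2- replicates had 6.56, 18.4, 8.44 and 18.2 there. So it was in every library but those of SOX2+/MKI67- cells. The neighbouring Zic5 region, chr14:122464612-122465705, was in 2 SOX2+ and 4 SOX2- libraries. At Zic1 the member chr9:91350815-91351312 lay 6.99 kb outside the gene, with 11.2 and 13.0 in SOX2+/MKI67+ libraries, above the median of both lists. Mfap4, an extracellular matrix gene, and Tlx3, a neuronal homeobox gene, had a single merged region each, which was a member at the gene end.

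In the hedgehog pathway, the members described here lay at genes of a receptor, the transducer, a transcription factor and an inhibitor. The list held no ligand. Smo encodes the transducer Smoothened, and its single merged region, chr6:29735308-29736470, was a member at its start. It had -log10 q-values of 9.27 and 7.85 in SOX2+/MKI67+ replicates 1 and 2, and no peak in SOX2+/MKI67- libraries. It had 5.25, 10.8 and 8.76 in SOX2+ replicates 1, 3 and 4 and 8.89, 20.4, 6.28 and 11.4 in SOX2- replicates 1 to 4. At Gli2, the main activator of hedgehog target genes, the start region chr1:119053384-119053966 had 7.83 and 10.1 in SOX2+/MKI67+ replicates 1 and 2. It had 6.44, 10.5 and 6.31 in SOX2+ replicates 1, 3 and 4 and 10.5, 3.38 and 9.63 in SOX2- replicates 2 to 4. A second Gli2 member, chr1:118954706-118955416, lay inside the gene and was in 1 SOX2+ and 3 SOX2- libraries.

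The receptor gene Ptch1, mutated in these mice, had 1 member among 7 regions, inside the gene at -0.556 kb from a RefSeq start. That region, chr13:63566059-63566524, had 4.56 and 8.59 in SOX2+/MKI67+ replicates 1 and 2, 4.76, 3.89 and 12 in SOX2+ replicates 1, 2 and 4 and 7.90, 3.06 and 11.5 in SOX2- replicates 2 to 4. Another Ptch1 region was listed in both SOX2+/MKI67- libraries, so the gene as a whole was not without peaks there. Sufu, which restrains GLI factors, had a member inside the gene, chr19:46422345-46423064, and a further region found in all 12 libraries.

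**Figure D5:**
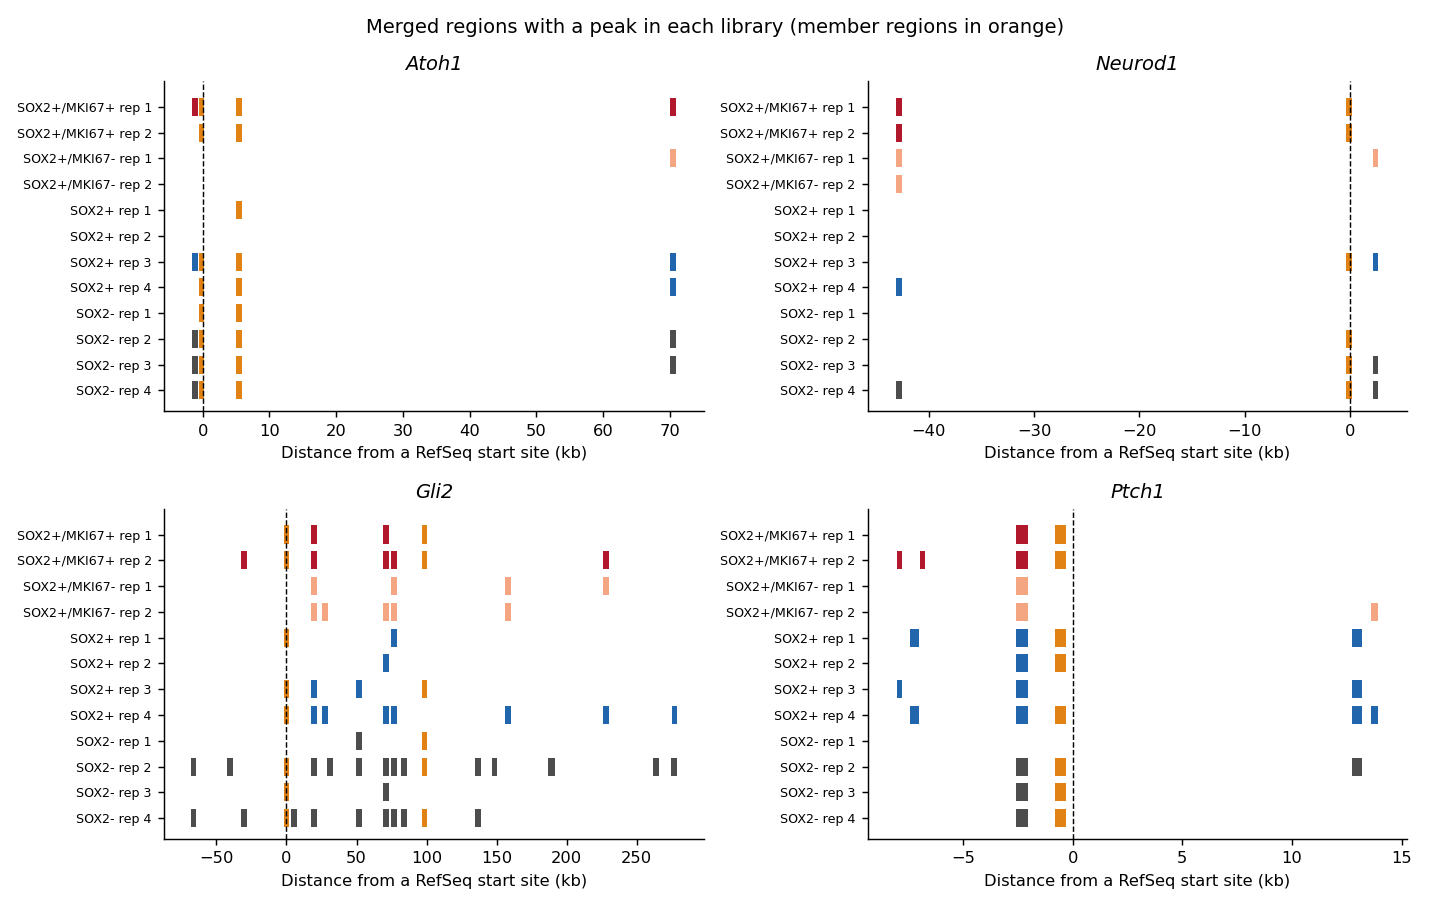
Merged regions with a peak at Atoh1, Neurod1, Gli2 and Ptch1 in each library (rows), by distance from a RefSeq start site in kb along the direction of transcription, with member regions in orange and narrow regions drawn wider than their length. Atoh1 has 2 members among 4 regions, Neurod1 1 among 3, Gli2 2 among 22 and Ptch1 1 among 7, and each gene has other regions in at least 1 SOX2+/MKI67- library.

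Genes of neuronal differentiation had members at starts and inside genes. Neurod1, a basic helix-loop-helix factor of differentiating granule neurons, had a member at its start, chr2:79456477-79457075. Its -log10 q-values were 9.30 and 6.12 in SOX2+/MKI67+ replicates 1 and 2, 7.42 in SOX2+ replicate 3 and 24.2, 7.88 and 13.2 in SOX2- replicates 2 to 4. Thus 1 of 4 SOX2+ lists and every SOX2- list but the shortest held it. The related Neurod6 had a member at its start (chr6:55680999-55681453) in the same SOX2+ library and the same SOX2- libraries. Stmn2, a microtubule regulator of growth cones, had a member at the end of its gene span, chr3:8561439-8562266, with 6.29 and 8.36 in SOX2+/MKI67+ replicates 1 and 2, 5.97 in SOX2+ replicate 3 and 4.13, 30.2, 14.7 and 14.8 in SOX2- replicates 1 to 4.

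Gap43, a growth cone protein gene, held the largest run of members, 3 within 50.9 kb inside the gene at chr16:42255612-42306467. By the rule all 3 were in both SOX2+/MKI67+ libraries and in neither SOX2+/MKI67- library. Of the 12 Gap43 regions 5 were in both SOX2+/MKI67+ libraries and 0 in both SOX2+/MKI67- libraries, although SOX2+/MKI67- libraries did have peaks at Gap43, as given below. Runs of this kind were few, as 37 members (6.95%) lay within 50 kb of another member. The neuronal transcription factor genes Pou4f1, Ebf3 and Lhx2 had 2, 1 and 1 members, each in at least 2 SOX2+ libraries. Among cell cycle inhibitors and quiescence genes 1 of 20, Btg1, had a member. Ccnd2, which encodes a G1 cyclin and is induced by hedgehog signalling, was the 1 cell cycle gene with a member. That region, chr6:127181165-127181938, lay 29.4 kb outside the gene, with 6.63 and 13.8 in SOX2+/MKI67+ replicates 1 and 2, 11.9 and 4.91 in SOX2+ replicates 3 and 4 and 2.82, 32.2, 9.38 and 16.2 in SOX2- replicates 1 to 4.

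Further genes had several members. Tenm4, a teneurin adhesion gene, Kif5c, a neuronal kinesin gene, Rnf220, a ubiquitin ligase gene, and Gap43 had 3 each, and 17 genes had 2. Among the genes with 2 were Otx1, a homeobox gene of the brain, Ptprd, a receptor phosphatase gene, Arhgap12 and Frmd4b. The members highest in both SOX2+/MKI67+ lists were mostly away from genes of the lists used here. Of the 10 highest, 3 had no gene within 100 kb, and the others were nearest to Pcdh9, Gm11232, Edn2, Ssr3, Kif5c, Sucnr1 and Efna5. The Pcdh9 region, inside a protocadherin gene at chr14:93350897-93351477, had the highest lower percentile, with 12.7 and 26.8 in SOX2+/MKI67+ replicates 1 and 2 and percentiles of 75.1 and 88.8. It had 6.38, 13.5 and 12.2 in SOX2+ replicates 1, 3 and 4 and 6.22, 34.0, 10.5 and 31.7 in SOX2- replicates 1 to 4. It was the only member above percentile 75 of both SOX2+/MKI67+ lists. Of 36 members found in 9 of 12 libraries, others named by the rule were nearest to Enox1, Pdgfa, which encodes a growth factor, Rere and Thnsl1.

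Starts of member genes with no member there were listed in each MKI67 group about as often as starts over all genes with a region. Leaving out genes with a member at an end removes starts that the rule made absent from SOX2+/MKI67- lists. The comparison genes were not filtered in this way and include the member genes, so the shares are a description. Of 248 member genes with no member at a gene end and a start window in the table, 61.7% had the start in both SOX2+/MKI67+ libraries and 60.1% in both SOX2+/MKI67- libraries. Over 11767 genes with a region these shares were 64.6% and 60.7%. All SOX2+ libraries listed the start at 46.8% of these member genes and all SOX2- libraries at 36.3%, against 46.6% and 39.1% over all genes with a region.

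The remaining peaks of the member genes are a measure that the rule did not use, and they were tested with limma over 14129 genes with member regions taken out. Between SOX2+/MKI67+ and SOX2+/MKI67- cells, 16 genes were higher (0.113%) and 13 lower (0.0920%) at an adjusted p under 0.05, and 0 of the 352 member genes tested passed. Some calls rested on very small counts with next to no spread. Agfg2 averaged 2 peaks in SOX2+/MKI67+ and 1 in SOX2+/MKI67- libraries (SE 0.009), and Adam5 0 and 1 (SE 0.066). The p-values of such genes measure little spread between libraries. At an unadjusted p under 0.05 limma gave 16 member genes (4.55%), against 3.90% of all genes. The median log2 difference in other peaks was 0 over member genes and -0.02 over all genes, and 50.9% of member genes were above 0 against 47.2%. At Gap43 the other peaks averaged 3.0 in SOX2+/MKI67+ and 1.0 in SOX2+/MKI67- libraries, a log2 difference of 0.91 ± 0.73 (SE, limma adjusted p = 1). At Atoh1 they averaged 1.0 and 0.5 (0.15 ± 0.73, limma adjusted p = 1), and at Gli2 3.5 and 4.5 (-0.71 ± 0.60, limma adjusted p = 1). None of these 3 differences passed. The same fit recovered none of the genes changed in simulated data for this contrast. Those data held Poisson counts, whereas the fit did call genes in the real lists. At the shares called over all genes, a count of 0 among 352 is near the background. It says nothing of whether these genes were alike in both groups.

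Between SOX2+ and SOX2- cells, 108 genes had more other peaks (0.764%) and 16 fewer (0.113%). Src, a tyrosine kinase gene, was the 1 member gene that passed. The count of member genes was 2 with equal list lengths and 0 to 5 with a library left out, with 5 without SOX2+ replicate 2 and 2 without SOX2- replicate 1. Src was in none of these 3 counts. It was not among the genes tested with equal list lengths, and it did not pass without either of these libraries. With its member region taken out, Src had 2, 2, 1 and 3 other peaks in SOX2+ replicates 1 to 4 and 0 in each SOX2- library. The log2(peaks + 1) difference of these other peaks was 1.53 ± 0.26 (SE, limma adjusted p = 0.0491). This call was lost without any 1 of 9 libraries, all but SOX2+ replicate 3 and SOX2+/MKI67+ replicates 1 and 2 (limma adjusted p up to 0.160). By the rule the Src member region was in at least 3 SOX2- libraries. With member regions included the call was lost too (limma adjusted p = 0.0642). At an unadjusted p under 0.05 there were 73 member genes (20.7%), against 13.0% of all genes. Many genes had exactly 1 peak in every library and could not reach this p, so the shares do not compare like genes. The median log2 difference was -0.07 over member genes and 0 over all genes, and 42% of member genes were above 0 against 43.8%. Among named loci, other peaks at Ptch1 averaged 2.75 in SOX2+ and 1.0 in SOX2- libraries (log2 difference 0.81 ± 0.22, limma adjusted p = 0.177). At Gli2 they averaged 2.75 and 6.5 (-0.93 ± 0.42, limma adjusted p = 0.425), and at Gap43 1.0 and 3.5 (-1.05 ± 0.52, limma adjusted p = 0.487). All 3 missed the threshold.

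The sort labels were compared with peaks at their marker genes. Sox2, which defines the eGFP sort, had 5, 2, 6 and 4 peaks in the SOX2+ lists, against 0, 1, 1 and 1 in the SOX2- lists, with no overlap. Mki67 had 2 and 5 peaks in SOX2+/MKI67+ and 2 and 1 in SOX2+/MKI67- libraries, so peaks near this gene did not separate the RFP sort. Members were found at 0 of 15 microglia and macrophage, 0 of 15 lymphocyte and 0 of 15 ependymal genes. Only 6 of the microglia and macrophage and 4 of the lymphocyte genes had any merged region, and at 1.88% of all genes a count of 0 in such lists is near the background. Members were at 1 of 15 endothelial and mural genes, namely Pecam1, and at 2 of 15 fibroblast and meningeal genes, namely Pdgfra and Zic1. These 2 genes are on other lists too. Pdgfra was the 1 of 15 oligodendrocyte lineage genes with a member, and Zic1 is also on the granule neuron progenitor list. Of 16 astrocyte and Bergmann glia genes 1, Sox9, had a member. Pecam1, a gene of endothelial cells, had 2 and 2 peaks in SOX2+/MKI67+ and 0 and 1 in SOX2+/MKI67- libraries, its member included. In SOX2+ lists it had 2, 0, 1 and 1, against 0, 2, 2 and 2 in SOX2- lists. Ptprc, a leukocyte gene with no member, had 2 peaks in each SOX2+/MKI67+ and SOX2+/MKI67- library. In SOX2+ lists it had 2, 1, 2 and 2, against 0, 0, 0 and 2 in SOX2- lists. The part of other cell types in the members was not tested.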

How the data were processed

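ATAC-seq libraries of sorted tumour cells, 12 in number, were compared. Per the labels' protocols, 35000 to 50000 cells were collected per sample, and reads were single-end and 50 bp long. The submitters' processing notes name Bowtie2, MACS2 and mm10; versions and settings are not given in the sources used here. Deposited narrowPeak lists give, per peak and library, a score, a fold ratio over background, a -log10 p-value and a -log10 q-value, all from the authors' peak caller. No reads or counts were used here, so depth is unknown, and list length is the nearest measure of it. The score and fold belong to 1 list and were used only to rank or filter peaks within it.

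Peaks were merged, and members found by the rule, in Python 3.11.15 with pandas 2.3.3. Members and gene lists were chosen with earlier results of these data known. Genes were the nearest of 21631 protein-coding genes of RefSeq GRCm38.p6 within 100 kb, and all 415 list entries matched this table. Start windows came from a RefSeq table without entries for some genes, so members over other starts were not counted as such. The limma test of other peaks per gene (version 3.58.1, functions lmFit and eBayes, trend on, two-sided, R 4.3.3) was run on log2(peaks + 1), with the 4 groups and log10 of list length, over genes listed in 2 or more libraries, with Benjamini-Hochberg adjustment. The difference understates changes of genes with few peaks. Tested on simulated Poisson counts, the fit recovered none of the changed genes between the MKI67 groups and a minority between the SOX2 groups. The labels do not say that replicates came from separate animals, so p-values measure the spread between these libraries, which may be technical. Alternatives varied the overlap, list length, score, gene-end distance, pseudocount, filter, covariate and libraries.

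Genes named were those with the most members, all members at loci of 6 lists (granule neuron progenitors, neuronal differentiation, neuronal transcription factors, hedgehog, cell cycle, DNA replication), the 10 members highest in both SOX2+/MKI67+ lists, 5 further members in most libraries, and member genes past the limma threshold. Members of other lists (Btg1, Sox9, Olig3, Cd44, Pecam1, Pdgfra) were named after their values were seen. Some genes that the rule covers are not reported here.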

Additional observations from a re-analysis of the deposited data

Results flagged for a closer look

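SOX2- replicate 1 held 190 of the 532 members, far from the 503, 531 and 532 of the other SOX2- libraries. The gap to the nearest of them was over Dixon's critical value for 4 samples. The rule lets a member miss only 1 SOX2- library, so each member absent from replicate 1 had to be in all the others. The gap thus follows in part from the rule, and the flag is a description, not a test. The list of SOX2- replicate 1 was also the shortest, with 7009 peaks. Of 45 groups of 4 values examined this was the 1 set apart. Chance sets apart about 1 group in 20, but that rate does not hold for counts tied by the rule.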

How the results depend on the processing

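The number of members was 535 when peaks had to overlap by 50% of the shorter peak (530 shared a region with a member) and 528 with summits within 250 bp (519 shared). It was 203 with peaks at or above the median score of each list (34 shared) and 130 with equal list lengths (4 shared). With a library left out it ranged from 318 to 945, the rule being applied to the libraries left. For a library outside the SOX2+ group this loosens the rule, and the exchanged rule too, so counts can rise for that reason alone. Leaving out SOX2+/MKI67- replicate 1 gave 911, SOX2+ replicate 3 gave 318, SOX2- replicate 1 gave 945 and SOX2- replicate 3 gave 913. The rule with MKI67 groups exchanged kept 2 regions, 9 with summits within 250 bp, 4 above the median score and 30 with equal list lengths, and 2 to 149 with a library left out. It was 4 and 149 without SOX2+/MKI67+ replicates 1 and 2, 4 and 11 without SOX2+/MKI67- replicates 1 and 2, and 14, 11 and 5 without SOX2- replicates 1, 3 and 4. The share of members at gene ends was 12.2% within 500 bp, 20.7% within 2500 bp, 54.2% above the median score and 62.3% with equal list lengths, against 15.6%; the last 2 settings choose mostly other regions.

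Genes with a different number of other peaks between SOX2+/MKI67+ and SOX2+/MKI67- cells numbered 29. They were 10 with a peak in at least 4 libraries, 56 with equal list lengths, 290 in a fit of only these 4 libraries and 30 to 75 with a library left out. These were 72 and 61 without SOX2+/MKI67+ replicates 1 and 2, 49 and 75 without SOX2+/MKI67- replicates 1 and 2, and 75 without SOX2+ replicate 4. Of member genes, 8 passed in the fit of the 4 libraries, and 0 or 1 in every other setting run. Between SOX2+ and SOX2- cells 124 genes passed, with 82 at equal list lengths and 80 to 198 with a library left out, the ends being SOX2+ replicates 1 and 2. Src lost the call in 5 further settings, among them the replicate block (limma adjusted p = 0.243).

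Replicate numbers were not shown to pair the libraries. The correlations of deviations of equal numbers were 0.0233, -0.359, -0.0415 and 0.191 for SOX2 groups and 0.0386 for MKI67 groups. With list length taken out they were -0.00496, 0.409, 0.0693 and -0.185 for SOX2 groups and 0.0628 for MKI67 groups. With 2 libraries in each MKI67 group the correlations differ only in sign by construction and cannot decide. Not every library correlated best with its own number. With the replicate block 25 genes passed between the MKI67 groups and 55 between the SOX2 groups.

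Depth is unknown and 2 libraries stand for each MKI67 group. Of the members, 314 were below the median of both SOX2+/MKI67+ lists. Over all members the median -log10 q-values were 5.78 and 6.52 in SOX2+/MKI67+ replicates 1 and 2, where the lists stopped at 1.38 and 1.55. Gene assignment by nearest gene within 100 kb is a convention, and 101 members had no gene.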
